A study of Mus musculus with 10 samples.

Results

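The 9 genes described here are markers of the ventral telencephalon and of the GABAergic interneurons that arise there: Dlx1, Dlx2, Dlx5, Dlx6, Gsx2, Lhx6, Nkx2-1, Gad1 and Gad2. They were found by gene symbol, and all 9 were among the 52632 genes of the table. RNA-seq had been done on 10 mouse neural stem cell cultures, each grown as an adherent layer on laminin in EGF and FGF2 from the cortices of a single embryo at embryonic day 14.5. The study asked what E147A does in these cells, a mutation of the ATPase part of SMCHD1, which is a chromatin factor needed for gene silencing on the inactive X and at some autosomal clusters. The cultures can also be compared for regional identity, since cortex is dorsal telencephalon and the 9 genes mark ventral tissue.

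Females of each genotype, E147A/+ and +/+, gave 2 cultures, and males of each genotype gave 3. E147A/+ embryos carried Smchd1GFP-E147A, an allele with a GFP tag, over an untagged wild-type allele, so tag and mutation cannot be told apart. Females of both genotypes also carried the XistdeltaA deletion on 1 X chromosome, and males did not carry it. Per the labels, every embryo was an F1 of a 129/C57 F1 mother and a Castaneus (Cast) father. Allelic counts went against this in places, since the genes around Gsx2 in all 4 female libraries, and those around Gad1 and Dlx1 in female E147A/+ replicate 1, had a median Cast share near 0, with some genes in each region well above it. Medians were also near 0 around Lhx6 and Gad2 in female E147A/+ replicate 1 and around Nkx2-1 in replicate 2. Around Dlx5 and Dlx6 they were 2.11% to 4.76% in female E147A/+ replicate 2 and both +/+ females. Litter 1 gave female E147A/+ replicate 1, litter 2 gave replicate 2, and litter 3 gave the 2 +/+ females. In females, therefore, genotype cannot be told apart from litter. Male E147A/+ replicates 1 and 2 came from litter 1 and replicate 3 from litter 3, and male +/+ replicates 1, 2 and 3 came from litters 4, 1 and 3. Each replicate is a different embryo grown as its own culture, so replicate spread includes the spread between embryos, dissections and cultures.

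In the embryo, the ganglionic eminences of the ventral telencephalon produce striatal neurons and most cortical interneurons, which migrate into the cortex. Gsx2 acts early in ventral progenitors, Dlx1 and Dlx2 follow it, and Dlx5 and Dlx6 lie downstream of those. Nkx2-1 specifies the medial eminence and turns on Lhx6 in its migrating interneurons, while Gad1 and Gad2 encode the enzymes that make GABA. Cortical progenitors grown for long in EGF and FGF2 are known to take on some ventral transcription factors, such as Olig2, whatever their place of origin.

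Total counts ran from 20648916 to 44519020 per library, and levels are given as CPM, which is counts scaled to a fixed library size over the genes tested, with TMM factors. The neural stem cell gene Sox2 was present in all 10 libraries, at 178 to 238 CPM. Of the dorsal, cortical progenitor factors, Emx2, Lhx2 and Pax6 were present in every culture, at 33.6 to 59.7, 44.1 to 128 and 23.5 to 52.4 CPM. Emx1, of the same list, was at 0 to 5.22 CPM and at 0 in 3 libraries, while Olig2 stood at 484 to 680. Smchd1 was lower in E147A/+, with a log2 difference of -0.42 over both sexes (SE 0.15), which did not pass the test (edgeR quasi-likelihood, adjusted p = 0.786). The counts do not show the mutation itself. Genes of the Y chromosome, at 1.72% of the male mean in female +/+ replicate 1 and at 0.432% or less in the other female libraries, matched the labelled sex.

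The promoters of 4 members are shown because Dlx1, Dlx2 and Gsx2 were high in the same pair of cultures and Gad1 had a Cast share far above that of the genes around it in 3 female libraries. Each is the RefSeq window of 300 bases on GRCm38.p6, from 250 bases before the transcript start that RefSeq lists to 50 after it, written 5′ to 3′ on the gene's strand. For Dlx1 and Gad1 that start lies inside the gene as GENCODE annotates it, downstream of the gene's first base. Dlx1 lies at chr2:71529195-71529494 on the plus strand, Dlx2 at chr2:71546705-71547004 on the minus strand, Gsx2 at chr5:75075351-75075650 on the plus strand and Gad1 at chr2:70561879-70562178 on the plus strand. Capitals mark CACGTG, the E-box core, which reads the same on both strands.
Dlx1: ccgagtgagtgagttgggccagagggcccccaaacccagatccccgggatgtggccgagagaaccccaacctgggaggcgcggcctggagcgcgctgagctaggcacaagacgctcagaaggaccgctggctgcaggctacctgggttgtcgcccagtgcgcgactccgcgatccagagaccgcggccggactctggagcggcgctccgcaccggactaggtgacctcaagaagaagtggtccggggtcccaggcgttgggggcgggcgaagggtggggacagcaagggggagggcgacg
Dlx2: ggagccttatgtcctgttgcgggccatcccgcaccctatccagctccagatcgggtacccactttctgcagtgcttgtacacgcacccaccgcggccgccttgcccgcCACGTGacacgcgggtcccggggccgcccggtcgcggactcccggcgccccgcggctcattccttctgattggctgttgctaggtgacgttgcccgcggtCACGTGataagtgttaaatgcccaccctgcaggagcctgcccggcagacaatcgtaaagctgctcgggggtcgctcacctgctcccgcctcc
Gsx2: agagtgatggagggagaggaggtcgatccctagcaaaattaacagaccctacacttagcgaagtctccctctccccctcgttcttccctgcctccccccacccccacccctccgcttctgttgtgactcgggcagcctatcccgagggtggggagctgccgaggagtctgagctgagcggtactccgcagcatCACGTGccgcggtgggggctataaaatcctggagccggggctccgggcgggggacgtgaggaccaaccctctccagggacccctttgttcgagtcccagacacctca
Gad1: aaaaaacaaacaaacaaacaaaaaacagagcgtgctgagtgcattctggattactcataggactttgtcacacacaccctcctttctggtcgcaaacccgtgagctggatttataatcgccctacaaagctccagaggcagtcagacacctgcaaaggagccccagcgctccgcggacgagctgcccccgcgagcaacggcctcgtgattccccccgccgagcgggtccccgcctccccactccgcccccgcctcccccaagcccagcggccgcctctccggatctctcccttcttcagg

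CACGTG occurred 2 times in the Dlx2 window, once in that of Gsx2 and in neither the Dlx1 nor the Gad1 window. It was present in 7.15% of 32851 mouse promoter windows of the same length. TAATTA, the core that many homeodomain proteins bind and also a palindrome, was in 5.29% of those windows and in none of the 9 windows that matched 7 of the members. The 4 promoters held 27, 29, 17 and 21 CpG dinucleotides in the order printed, against a median of 7. These matches describe the letters only. The windows of Dlx5 and Dlx6 were not analysed here.

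The members lie in a few places of the genome (GRCm38, all annotated as protein coding). Dlx1 (chromosome 2, 71528113 to 71533981, plus strand) and Dlx2 (71543408 to 71546754, minus strand) face each other with 9426 bases between them. Gad1 (70553072 to 70602014, plus strand) lies 926098 bases before Dlx1 on the same chromosome, which also carries Gad2 (22622205 to 22693874) and Lhx6 (36081953 to 36105408). Dlx5 and Dlx6 are a second such pair on chromosome 6, 9236 bases apart, while Gsx2 is on chromosome 5 (75075601 to 75077893) and Nkx2-1 on chromosome 12 (56531958 to 56536908). Dlx1, Dlx6, Nkx2-1 and Gad1 each overlap an antisense gene (Dlx1as, Dlx6os1, Gm26973 and Gad1os). The libraries were stranded, but no source used here says whether the counting used strand, so reads of each member and its partner cannot be told apart.

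Gad1 was the member with the highest level, Nkx2-1 had 0 counts in all 10 libraries, and the other members lay between them at low levels. Per length, as mean RPKM over the 10 libraries on the annotated exons, Gad1 led at 2.30, followed by Gsx2 at 0.721, Dlx2 at 0.352, Dlx1 at 0.304 and Gad2 at 0.133. Dlx5, Lhx6 and Dlx6 were between 0.0324 and 0.0394. The order below Gad1 depended on the culture, since Gsx2, Dlx1 and Dlx2 each varied by more than 20-fold between libraries. In cultures of mixed cells, fewer cells of a type and less RNA per cell cannot be told apart.

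**Figure D1:**
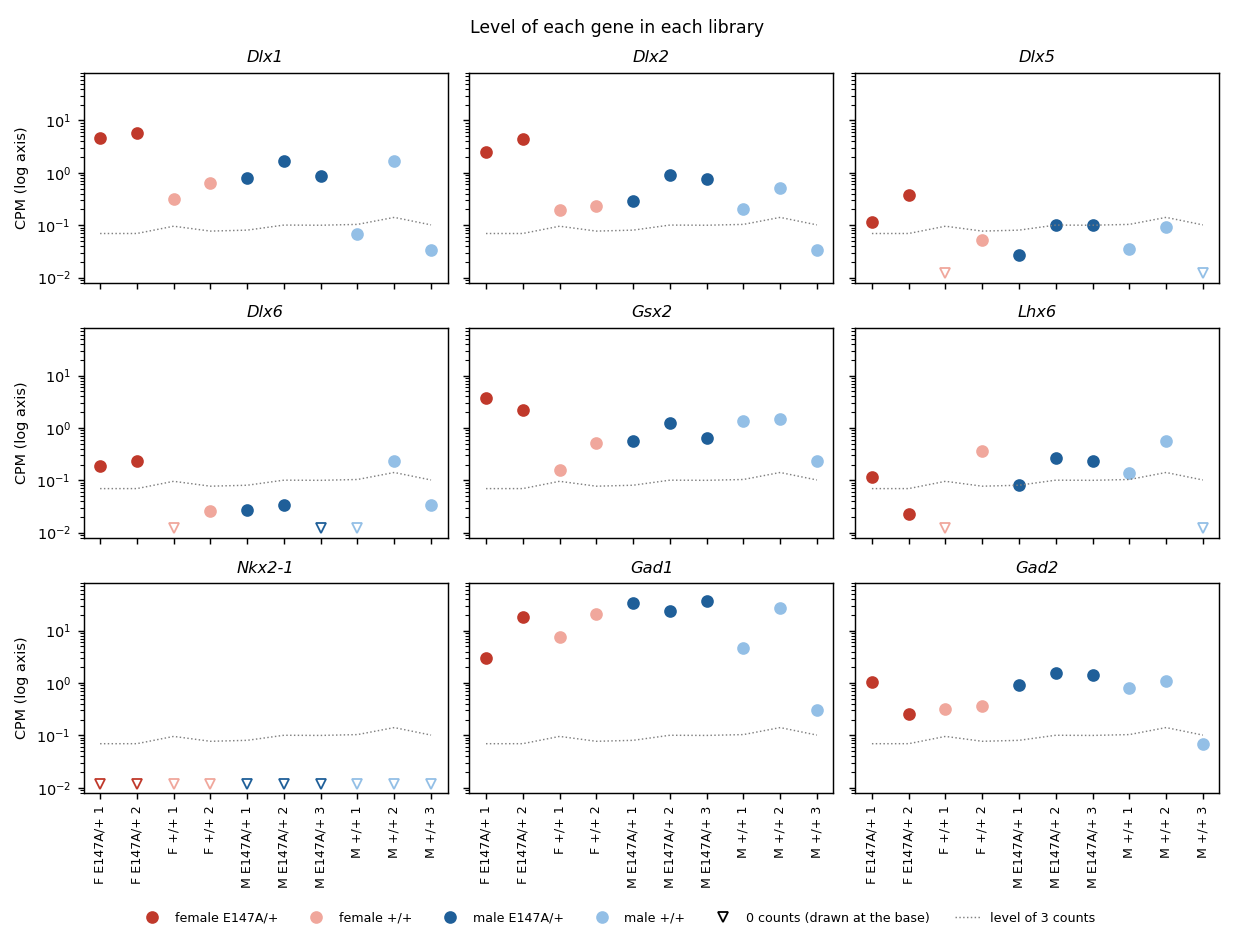
Level of each member in CPM on a log axis, by library. Each point is 1 culture, coloured by sex and genotype, with open triangles for 0 counts and a dotted line at the level of 3 counts. The 2 female E147A/+ cultures lie above the other 8 for Dlx1, Dlx2 and Gsx2, while Gad1 spreads from 0.304 to 36.6 CPM within male +/+ and male E147A/+ together.

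Dlx1, Dlx2 and Gsx2, the ventral progenitor factors, were higher in both female E147A/+ cultures than in any of the other 8, at levels of a few CPM. None of these differences passed edgeR's test across all genes, while DESeq2 called Dlx2 in females and over both sexes. In males the same genes overlapped between genotypes. The pattern was therefore one of 2 cultures of 1 group, and those cultures came from litters 1 and 2 while their controls came from litter 3.

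Gsx2, a homeodomain factor that specifies ventral progenitors, was at 3.70 and 2.17 CPM in female E147A/+ replicates 1 and 2. Female +/+ cultures had 0.159 and 0.514 CPM, male E147A/+ cultures 0.563, 1.24 and 0.632, and male +/+ cultures 1.35, 1.46 and 0.236. The female genotypes did not overlap, whereas in males the highest cultures were +/+ replicates 1 and 2. The group means were 2.93 ± 1.08 (SD, n = 2) and 0.336 ± 0.251 (n = 2) CPM in female E147A/+ and +/+. In males they were 0.811 ± 0.372 (n = 3) and 1.01 ± 0.674 (n = 3). The log2 difference of E147A/+ from +/+ was 3.09 in females (SE 0.91, adjusted p = 0.964) and -0.31 in males (SE 0.70, adjusted p = 1.00). The female value was 2.50 without +/+ replicate 1 and 4.17 without +/+ replicate 2. The difference between those effects, the interaction of sex and genotype, was 3.41 (95% interval 0.87 to 5.94, unadjusted p = 0.0136) and did not pass adjustment over all genes (adjusted p = 0.999). In the interaction 0 of 17110 genes passed in edgeR, and DESeq2 called 2 of the 28326 it tested. Of the genes in edgeR, 314 (1.84%) were under an unadjusted 0.05.

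Dlx1, a homeodomain factor of ventral progenitors and interneurons, was at 4.67 and 5.66 CPM in female E147A/+ replicates 1 and 2. Levels were 0.318 and 0.642 for female +/+, 0.804, 1.67 and 0.864 for male E147A/+, and 0.069, 1.69 and 0.0337 for male +/+. The female genotypes stood far apart, and in males 1 +/+ culture, replicate 2, lay at the top of its sex beside +/+ cultures near 0. Group means were 5.16 ± 0.705 and 0.480 ± 0.229 CPM (SD, n = 2 each) in female E147A/+ and +/+, and 1.11 ± 0.486 and 0.598 ± 0.946 (n = 3 each) in the males. The log2 difference was 2.18 over both sexes (SE 0.84, adjusted p = 0.798), 3.41 in females (SE 1.34, adjusted p = 0.964) and 0.95 in males (SE 1.05, adjusted p = 1.00). Whether Dlx1 passed the test depended on 1 library: without male +/+ replicate 2, the difference over both sexes was 3.88 with an adjusted p of 0.0416 (edgeR quasi-likelihood). With litter as a covariate it was 1.126.

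Dlx2, the neighbour of Dlx1 and its partner in interneuron production, had the lowest p of the members. It was at 2.54 and 4.37 CPM in female E147A/+, 0.191 and 0.231 in female +/+, 0.295, 0.904 and 0.765 in E147A/+ males, and 0.207, 0.516 and 0.0337 in male +/+. Female genotypes did not overlap, and 2 of 3 male E147A/+ cultures lay above all male +/+ cultures. Mean levels in females were 3.45 ± 1.29 CPM for E147A/+ and 0.211 ± 0.0284 for +/+ (SD, n = 2 each). For males these were 0.654 ± 0.319 and 0.252 ± 0.245 (SD, n = 3 each). The log2 difference was 2.71 over both sexes (SE 0.61, 95% interval 1.33 to 4.08, unadjusted p = 0.00139), 4.00 in females (SE 0.97) and 1.41 in males (SE 0.77). Without male +/+ replicate 3 the male value was 0.87, and without male +/+ replicate 2 it was 2.41. It ranked 67th by p among 17110 genes, with an adjusted p of 0.356 in edgeR. DESeq2 gave 2.73 over both sexes with an adjusted p of 0.000837, and 4.02 in females with an adjusted p of 0.0034. The call on Dlx2 thus differed between the tools. The interaction was 2.60 (95% interval -0.09 to 5.28, adjusted p = 0.999).

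Over both sexes, 0 of the 6 members tested were called at an adjusted p of 0.05 in edgeR, beside 0.0818% of all genes tested (14 of 17110). The count was also 0 in females and in males, beside 0.0117% and 0.0234% of all genes. Lhx6, among the 6, passed the filter only through +/+ cultures, so its test is not read. At an unadjusted 0.05, Dlx1, Dlx2 and Gsx2 were past the threshold over both sexes and in females, each higher in E147A/+, and no member was in males. The shares of all genes past it were 5.90%, 4.36% and 3.44% in either direction, and 3.05% and 2.70% for higher genes over both sexes and in females. With litter as a covariate, 1 member (Dlx2) was under an unadjusted 0.05 over both sexes and 0 in females, beside 3.77% and 1.67% of all genes. In that fit the female log2 differences of Dlx2, Gsx2 and Dlx1 were 2.83, 2.11 and 1.43. The covariate fits exactly the only cultures of litters 2 and 4, female E147A/+ replicate 2 and male +/+ replicate 1. The female values then rest on 1 E147A/+ culture, so the parts of litter and genotype cannot be told apart by that fit. DESeq2 called 1 member over both sexes, 1 in females and 0 in males, beside 0.564%, 0.241% and 0.285% of the genes it tested. Higher levels in E147A/+ without overlap in females were seen for 21.8% of all genes, which makes such separation common with 2 cultures a side. In males 0 members were separated in that direction, beside 3.20% of all genes. Fewer genes, 3.05%, had both female E147A/+ cultures above all of the other 8, as Dlx1, Dlx2 and Gsx2 did.

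**Figure D2:**
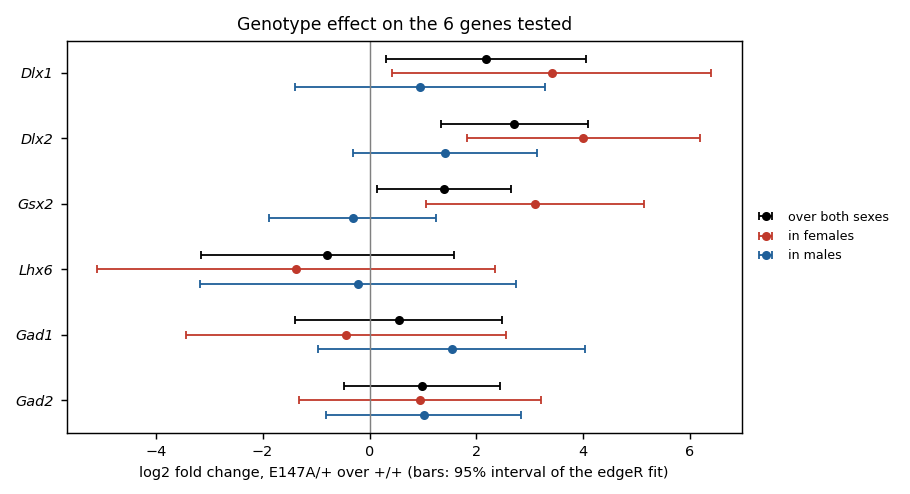
Log2 difference of E147A/+ from +/+ for the 6 members tested, over both sexes and within females and males, with 95% intervals from edgeR's quasi-likelihood fit. Dlx1, Dlx2 and Gsx2 lie at 3.09 to 4.00 in females and at -0.31 to 1.41 in males, and the intervals of Gad1 and Gad2 include 0 in each comparison. Lhx6 is drawn too, but it passed the filter only through +/+ cultures, so its intervals are not read.

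Dlx5 and Dlx6, which carry the Dlx programme on in young neurons, were near the limit of detection and did not pass the filter on low counts. Dlx5 had 5 and 16 counts in female E147A/+, 0 and 2 in female +/+, 1, 3 and 3 in E147A/+ males, and its counts in male +/+ were 1, 2 and 0. Dlx6 had 8 and 10, 0 and 1, 1, 1 and 0, and 0, 5 and 1 counts in the same order. Dlx5 was highest in the female E147A/+ cultures, at 0.115 and 0.370 CPM. Dlx6 was at 0.185 and 0.231 CPM there and at 0.235 in the shallower male +/+ replicate 2, so those cultures did not stand apart in Dlx6. Tested with no filter, the log2 difference in females was 2.98 for Dlx5 (SE 1.47) and 3.59 for Dlx6 (SE 1.69), each with an adjusted p of 0.964 in edgeR.

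Nkx2-1, the factor of the medial ganglionic eminence and the preoptic area, had 0 counts in all 10 libraries. A count of 0 allows up to 3 counts per library, which is 0.0693 to 0.141 CPM, and covers counting error only. Lhx6, which acts after Nkx2-1 in medial interneurons, was at 0.115 and 0.0231 CPM in female E147A/+, 0 and 0.360 in female +/+, 0.0804, 0.268 and 0.233 in E147A/+ males, and 0.138, 0.563 and 0 in male +/+. Its highest cultures were +/+ replicate 2 of each sex, and the genotypes overlapped. It passed the filter on low counts only through 2 +/+ cultures, so its test is not read. The log2 difference over both sexes was -0.79, and it was 2.02 without female +/+ replicate 2. The cultures that were high in Dlx1 and Dlx2 were not high in the medial markers.

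Gad1, which encodes the main GABA-producing enzyme of neurons, was the member with the highest level and had a pattern of its own. It was at 3.03 and 17.9 CPM in female E147A/+, 7.61 and 20.9 in female +/+, 33.8, 23.5 and 36.6 in E147A/+ males, and 4.66, 27.7 and 0.304 in male +/+. The low cultures were spread over 3 groups: female E147A/+ replicate 1, female +/+ replicate 1, and male +/+ replicates 1 and 3. Group means were 10.5 ± 10.5 and 14.3 ± 9.40 CPM in female E147A/+ and +/+ (SD, n = 2 each), and 31.3 ± 6.90 and 10.9 ± 14.7 in the males (n = 3 each). The log2 difference was 0.54 over both sexes (SE 0.87, adjusted p = 0.903), -0.45 in females and 1.53 in males (SE 1.12, adjusted p = 1.00), so no difference exceeded the spread between cultures. It was -0.34 over both sexes without female E147A/+ replicate 2 and -0.91 with litter as a covariate. In males it ranged from 0.96 without +/+ replicate 3 to 3.66 without +/+ replicate 2 (unadjusted p = 0.0108, adjusted p = 0.879).

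Gad2, the GABA enzyme of nerve terminals, was at 1.06 and 0.254 CPM in female E147A/+, 0.318 and 0.360 in female +/+, 0.911, 1.54 and 1.43 in E147A/+ males, and 0.793, 1.08 and 0.0675 in male +/+. Genotypes overlapped in both sexes. The log2 difference was 0.98 over both sexes (SE 0.65, adjusted p = 0.824). Leaving out 1 library, it ranged from 0.31 to 1.34 over both sexes and from 0.47 to 1.58 in males. In females it was 0.95 with both E147A/+ cultures and -0.41 without replicate 1.

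The spread between cultures of the same group was large for these genes. The biological coefficient of variation, the spread that edgeR finds beyond counting noise, was 0.883 for Gad1. This was higher than in 99.7% of the 1921 genes at a like level, whose median was 0.262. For Dlx1 it was 0.845, higher than in 95.5% of 1123 genes at its level, and for Dlx2 and Gsx2 it was 0.572 and 0.584, higher than in 66.1% and 70.2% of genes at theirs. Over all genes tested the median was 0.292. Gad1 and Dlx1 therefore varied within groups more than most genes of their abundance.

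Litters 1 and 3 held males of both genotypes, so the genotypes could be set beside each other within a litter. In litter 1, the mean log2 CPM of the E147A/+ males minus that of the +/+ male was -0.52 for Dlx1, 0.02 for Dlx2, -0.75 for Gsx2 and 0.03 for Gad1 (2 cultures against 1). In litter 3, with 1 culture of each genotype, the same differences were 3.30, 3.14, 1.22 and 6.66, and that of Gad2 was 3.55. With so few cultures these values have no test. The litter 3 values rest on male +/+ replicate 3, which was the lowest of all 10 libraries for Dlx1, Dlx2, Gad1 and Gad2. That culture was the lowest for 16.8% of all genes tested. In the litter 1 males, where no culture was that low, the genotypes were closer together.

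Some members also varied together outside the female E147A/+ group. Of 15 pairs, 6 passed by Pearson's r and 2 by Spearman's rho after adjustment. The lowest r that passed was 0.805 and the lowest rho 0.905, values that 2.79% and 0.739% of all pairs of the genes tested reached over the same 8 cultures. Over the other 8 cultures, Dlx1 and Dlx2 had a Pearson r of log2 CPM of 0.859 (permutation p = 0.00422, adjusted over 15 pairs 0.0162) and a Spearman rho of 0.905 (permutation p = 0.00508, adjusted 0.0381). Without the 2 cultures farthest from the median of Dlx1, r was 0.795. For Dlx2 and Gad2, r was 0.935 (permutation p = 0.00024, adjusted 0.0036), rho was 0.976 (permutation p = 0.00049, adjusted 0.00735) and r without the 2 farthest cultures was 0.815. Dlx2 and Gad1 had an r of 0.853 (permutation p = 0.00433, adjusted 0.0162), a rho of 0.810 (permutation p = 0.0225, adjusted 0.0676) and an r of 0.725 without the 2 farthest. Dlx1 and Gad1 had an r of 0.880 and 0.677 without the 2 farthest cultures, Gad1 and Gad2 had 0.841 and 0.751, and Gsx2 and Lhx6, the pair with the lowest r that passed, had 0.805 and 0.599. The r of each of these 6 pairs was thus lower without those cultures. The pairs of Gsx2 with Dlx1 and Dlx2 did not pass, at an r of 0.439 with Dlx1 (permutation p = 0.272, adjusted 0.272) and 0.630 with Dlx2 (permutation p = 0.094, adjusted 0.108). Their rho values were 0.595 (permutation p = 0.133, adjusted 0.153) and 0.619 (permutation p = 0.115, adjusted 0.150). Without the 2 cultures farthest from the median of Dlx1, male +/+ replicates 1 and 3, the r of Gsx2 with Dlx1 was 0.991. The r of Gsx2 with Dlx2 was 0.361 without the 2 cultures farthest from the median of Dlx2. These correlations include the differences between genotypes and litters. Because the female E147A/+ cultures stand apart in Dlx1 and Dlx2, no test over all 10 is given.

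As a description, the genes whose log2 CPM was most like that of Dlx2 over the 10 libraries were Otx2 (Pearson r 0.962), Rps10-ps2 (0.935), Gm6863 (0.929), Pisd-ps2 (0.928) and Katna1 (0.928). Without the female E147A/+ cultures, which stand apart in Dlx2, these values were 0.888, 0.893, 0.848, 0.780 and 0.923. Otx2, a homeodomain factor of forebrain and midbrain, was at 10.2 and 13.4 CPM in the female E147A/+ cultures and at 0 to 1.34 CPM in the other 8. Rps10-ps2 and Pisd-ps2 are named as pseudogenes, so their counts may hold reads of the parent genes and are uncertain. The genes most like Gad1 were Erich2 (0.944), Pced1b (0.926), Zfp423 (0.922), Gad1os (0.908) and Cbfa2t2 (0.905). Erich2 (chromosome 2, 70508819 to 70540884) lies beside Gad1, and Gad1os overlaps it on the other strand. These likenesses are the top of a list of 17110 genes, and they have no test.

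The 4 female libraries also had counts assigned to the 129 or the Cast allele, and these set Gad1 apart. In female E147A/+ replicate 2, 281 of 287 allelic counts of Gad1 were Cast, or 97.9% (95% Wilson interval 95.5 to 99). In female +/+ replicates 1 and 2 they were 79 of 79, or 100% (95.4 to 100), and 267 of 285, or 93.7% (90.2 to 96). Over the 3 libraries the share was 96.3%, with 627 Cast and 24 129 counts. In all 3 the genes around Gad1 had both alleles: within 2 Mb, the 23 to 25 genes with at least 20 allelic counts had median Cast shares of 49.3%, 49.2% and 48.2%, and none of them reached the share of Gad1. Among genes of the genome whose surroundings also had both alleles, 0.567%, 0.321% and 1.27% had a Cast share as high as that of Gad1. Intervals cover counting error only.

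Female E147A/+ replicate 1 differed, with 0 of 47 Gad1 counts on Cast, which allows a share of up to 6.38% (3 counts). There the 27 genes around Gad1 had a median Cast share of 0.363% and a highest share of 22.3%, so Cast counts were few in the region but not absent from it. This was also the female culture with the lowest Gad1 level, 3.03 CPM against 7.61 to 20.9 in the other 3. With 1 such culture, the level and the Cast share cannot be compared by a test, and the part of the Cast share in the lower level was not tested. Counts of the 129 allele of Gad1 were 47 in this culture and 6, 0 and 18 in the other 3. Male allelic counts were not analysed here.

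**Figure D3:**
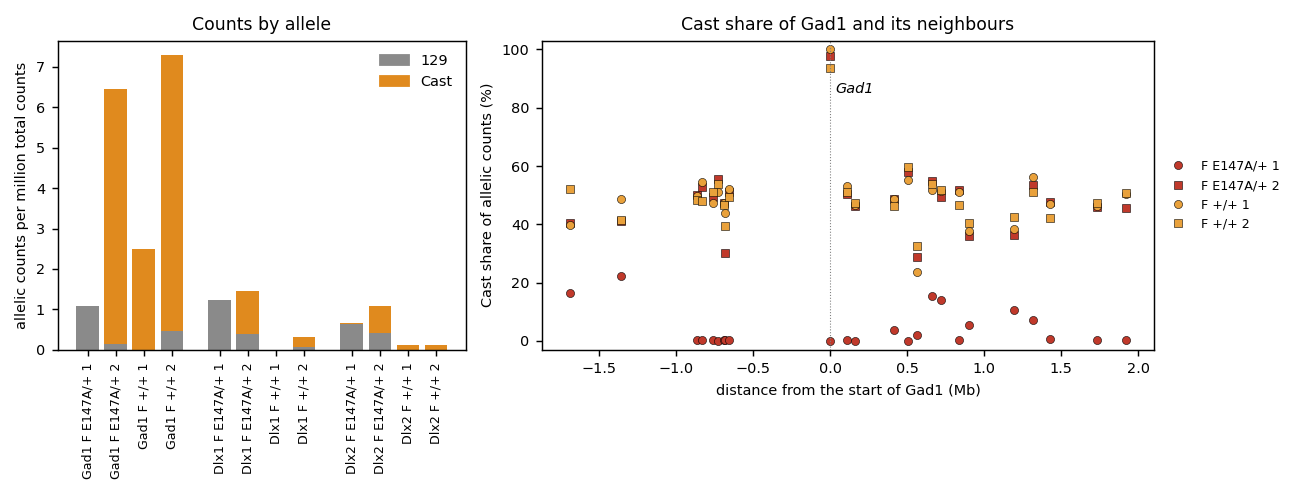
Left, counts assigned to the 129 (grey) and Cast (orange) allele, scaled to library size, for Gad1, Dlx1 and Dlx2 in each female library. Right, the Cast share of allelic counts in percent for Gad1 and each gene within 2 Mb that has enough allelic counts, by distance from the start of Gad1: in 3 libraries Gad1 lies at 93.7% to 100% while the genes around it lie near a median of 48.2% to 49.3%, and in female E147A/+ replicate 1 Gad1 lies at 0% and the genes around it at a median of 0.363%, the highest at 22.3%.

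The neighbours of Gad1 that resembled it in level had few allelic counts, all on Cast. Summed over the 3 libraries, Gad1os had 18 Cast and 0 129 counts (95% Wilson interval of the share 82.4 to 100) and Erich2 had 13 and 0 (77.2 to 100). Reads of Gad1os and Gad1 share part of their positions and may not be separate evidence. Erich2 does not overlap Gad1.

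Dlx1 and Dlx2 had fewer allelic counts. Summed over the 3, Dlx1 had 57 Cast and 20 129 counts, or 74.0% (95% Wilson interval 63.3 to 82.5), and Dlx2 had 39 and 18, or 68.4% (55.5 to 79). Of these counts, 65 of 77 for Dlx1 and 48 of 57 for Dlx2 came from female E147A/+ replicate 2, where the genes around Dlx1 had a median of 48.6%. The share of Dlx1 there was 73.8% (62.0 to 83.0), above that median, while that of Dlx2 was 62.5% (48.4 to 74.8), an interval that includes it. In female E147A/+ replicate 1, 0 of 53 Dlx1 counts (which allows up to 5.66%) and 1 of 29 Dlx2 counts were Cast. Counts of Dlx1 and Dlx2 in the female E147A/+ cultures thus came from both alleles in replicate 2 and almost only from 129 in replicate 1. In replicate 1 the 31 genes around them had a median Cast share of 0.363%, so their alleles cannot be compared there. Gsx2 had 0 Cast counts in all 4 libraries, of 88, 56, 5 and 11 allelic counts, which allows up to 3.41% at the deepest, and the genes around it had median Cast shares of 0.216% to 0.264%. Its alleles cannot be compared in these cultures.

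Other regional genes were read for the same cultures. Six3, a forebrain factor that also acts in ventral progenitors, was at 14.1 and 13 CPM in female E147A/+ and at 0 to 1.84 in the other 8 cultures. Its log2 difference over both sexes was 2.70 (SE 1.10, adjusted p = 0.814). En2, a midbrain and hindbrain factor, was at 0.716 and 0.855 CPM in female E147A/+ and at 0 to 0.188 elsewhere. It passed the filter on low counts only through those 2 cultures, so its test is not read. Otx2, which also acts in the midbrain, had a log2 difference of 3.76 (SE 0.99, adjusted p = 0.547). Of the 9 midbrain and hindbrain genes, 4 were tested in edgeR and 3 in DESeq2 over both sexes, with 0 called by either. At an unadjusted 0.05, Otx2 was higher and Egr2 lower (log2 difference -1.04), and Gbx2 was at -2.03. The summed level of that list was 16.7 and 19.6 CPM in female E147A/+, 17.4 in female +/+ replicate 2 and 16.9 in male +/+ replicate 3, so the sums overlapped. Otx2 made up 10.2 and 13.4 CPM of the sum in female E147A/+ replicates 1 and 2. It was at 0.257 and 0 CPM in those +/+ cultures, where other genes of the list carried the sum. Whether cells of another region had a part in the Dlx and Gsx2 levels was not tested.

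Of 21 other regulators of the ventral telencephalon, 15 were tested and 0 were called in any comparison in edgeR, while DESeq2 called 1 in females. Over both sexes 5 of the 15 had a positive log2 difference, with a median of -0.06 beside -0.01 over all genes, and 4 had an unadjusted p under 0.05. They included Six3, which was higher, and Sox6, which was lower. Gsx1, the close relative of Gsx2, was at 0.0231 CPM in each female E147A/+ culture, 0.350 and 0.205 in female +/+, 0.0665 to 0.214 in male E147A/+ and 0.207 to 1.96 in male +/+. It was one of those 4 too, but it passed the filter only through 3 +/+ cultures, so its test is not read. Olig1 and Olig2, which had the highest levels of the list, were above 484.4 CPM in every culture.

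Of 12 genes of the sonic hedgehog pathway, which patterns the ventral neural tube, 10 were tested. None was called in edgeR or DESeq2, and none had an unadjusted p under 0.05 in edgeR over both sexes, in females or in males, where the medians were 0.10, -0.06 and 0.16. Shh, the ligand, had at most 3 counts in a library.

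Of 19 genes for GABA transport and interneuron products, 16 were tested and 0 called in edgeR, with 4 under an unadjusted 0.05. The median log2 difference over both sexes was -0.42, and 6 of 16 were positive. Slc32a1, the vesicular GABA transporter, was at 0.323 and 0.162 CPM in female E147A/+ and at 0 to 0.335 in the other cultures. It was one of those 4, but it passed the filter only through 2 E147A/+ cultures, so its test is not read. Ackr3 and Erbb4, receptors used by migrating interneurons, and Zeb2 were the 3 others with an unadjusted p under 0.05, all lower in E147A/+ at log2 differences of -1.10, -1.10 and -0.35. Sst, the peptide of many medial interneurons, was at 0 to 3.26 CPM, with its highest levels in male E147A/+ replicate 3 and female +/+ replicate 2.

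**Figure D4:**
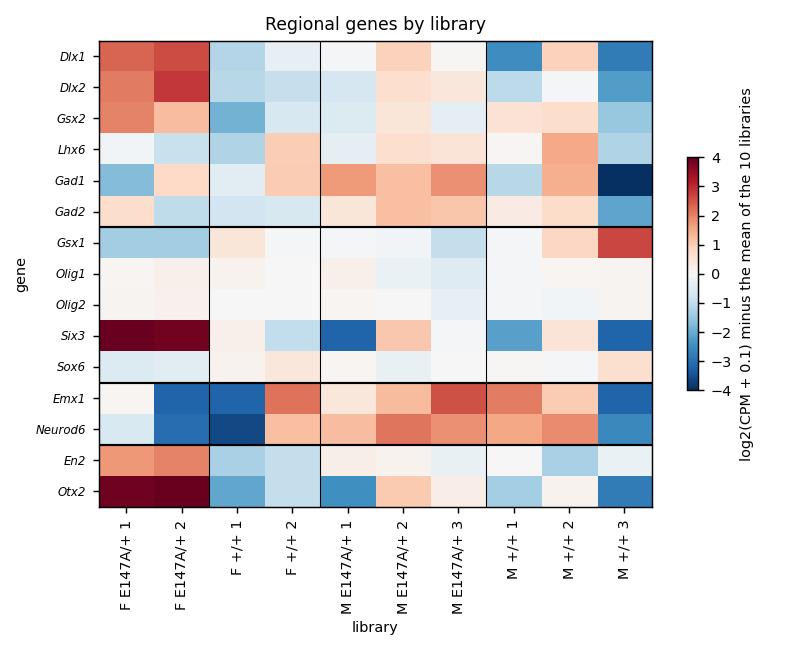
Levels of 6 members and of some other ventral, dorsal, and midbrain and hindbrain genes, from top to bottom, as log2 of CPM plus 0.1 minus the gene's mean over the 10 libraries (red above it, blue below it). The 2 female E147A/+ columns are above the mean for Dlx1, Dlx2, Gsx2, Six3, En2 and Otx2, and male +/+ replicate 3 is below it for the 6 members shown and for Emx1 and Neurod6.

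Among 20 genes of the dorsal telencephalon, 18 were tested and 0 called over both sexes, with 1 under an unadjusted 0.05 in edgeR. The median log2 difference was -0.22 over both sexes, -0.55 in females with 2 of 18 positive, and 0.45 in males with 15 of 18 positive. Emx1 was at 0.855 and 0 CPM in female E147A/+, 0 and 4.06 in female +/+, 1.15, 2.11 and 5.22 in E147A/+ males, and 3.69, 1.74 and 0 in male +/+. Emx1 thus had 0 counts in cultures of both genotypes, and female E147A/+ replicate 1 lay above female +/+ replicate 1 and male +/+ replicate 3. Neurod6, a marker of cortical excitatory neurons, was at 0.947 and 0.0925, 0.0318 and 3.60, 3.64, 6.96 and 5.55, and 4.55, 5.82 and 0.169 CPM in the same order.

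Markers of young neurons were set beside Gad1, which neurons express. Of the 10 neuron markers, 10 were tested and 0 called in edgeR (1, Rbfox3, under an unadjusted 0.05), with a median log2 difference of -0.19 over both sexes, and the summed level of the list was 694 to 828 CPM in female E147A/+, 706 to 880 in female +/+, 665 to 756 in male E147A/+ and 694 to 1137 in male +/+. Stmn2, a marker of young neurons, was at 4.69 and 0.786 CPM in female E147A/+, 0.255 and 13.1 in female +/+, 9.86, 24.9 and 22.9 in E147A/+ males, and 8.45, 21.8 and 0.169 in male +/+. Male +/+ replicate 3 was lowest of the 10 in both Stmn2 and Gad1, while female E147A/+ replicate 2 had 0.786 CPM of Stmn2 beside 17.9 CPM of Gad1. Dcx and Tubb3, also of the list, were at 1.39 and 5.27 CPM in female E147A/+ replicate 2, each the lowest of the 10 libraries. In male +/+ replicate 3 they were at 5.10 and 9.25 CPM, with highs of 26.5 and 30.1 among the 10. Map2, at 477 to 982 CPM, made up most of the summed level in every library. Some other genes of the list differed from Stmn2. In female E147A/+ replicate 2, Rbfox3, a marker of mature neurons, was at 8.25 CPM, the highest of the 10 libraries (the others at most 2.68), and Syt1, a protein of synaptic vesicles, was at 22.5 CPM. In male +/+ replicate 3, Syt1 (33.4 CPM), Map2 (982) and Elavl4 (79) were at their highest of the 10 libraries, and Syt1 was at 21.7 CPM in female +/+ replicate 1. The part of neuron number in the Gad1 levels was not tested.

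Markers of other cell types were read in the same libraries. The 8 microglial genes summed to 0.948 to 1.34 CPM in female E147A/+, 0.514 to 1.05 in female +/+, 0.366 to 0.703 in male E147A/+ and 0.483 to 2.80 in male +/+. The 9 vascular and meningeal genes summed to 5.34 to 10.03, 10.6 to 12.9, 6.43 to 25.8 and 4.18 to 27.7 CPM in the same order. None of the 10 of these genes tested was called (1 under an unadjusted 0.05, edgeR), and neither sum was higher in both female E147A/+ cultures than in all others. The 7 astrocyte genes summed to 433 to 507, 396 to 433, 422 to 450 and 397 to 676 CPM in the same order, and 0 of 7 were called by edgeR or DESeq2 (0 under an unadjusted 0.05 over both sexes and 1 in females, edgeR). That gene was Aldh1l1, a folate enzyme of astrocytes and radial glia, at 112 and 97.1 CPM in female E147A/+ and at 31.0 to 71.0 in the other 8 cultures, so it separated the same pair of cultures as Dlx1, Dlx2 and Gsx2. Its female log2 difference was 0.95 (SE 0.40, adjusted p = 0.964). In the oligodendrocyte lineage 1 of 9 genes tested was called over both sexes: Gpr17, a receptor of committed precursors (called also by DESeq2, with Pdgfra). Gpr17 had a log2 difference of -4.98, but it passed the filter only through the 5 +/+ cultures, so its test is not read. Pdgfra, the receptor of oligodendrocyte precursors, was lowest in the 2 female E147A/+ cultures, at 5.77 and 2.84 CPM, and at 10.7 or more in the others (log2 difference -2.38, adjusted p = 0.249 in edgeR). The part of these cell types in the levels of the members was not tested. In the neural stem cell list 0 of 12 were called and 1 had an unadjusted p under 0.05.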

How the data were processed

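Per the labels, poly(A) RNA of 10 cultures was made into stranded paired-end libraries. The authors deposited whole-number counts per gene, and for the 4 female libraries also counts per 129 and Cast allele. The submitters' processing notes name Trim Galore 0.4.4, HISAT2 2.0.5, featureCounts, R 3.5.1, edgeR 3.24.0 and GRCm38, with no roles. The method of allele assignment is not given in the sources used here. No per-sample column was left unused.

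Groups came from the labels' sex and genotype. Genes passing filterByExpr (17110 of 52632, at least 10 counts at the median depth in 2 libraries) were TMM-scaled, and edgeR 4.0.16 under R 4.3.3 tested them with quasi-likelihood F tests, all 10 libraries sharing 1 model with a mean for each group (6 residual degrees of freedom), with Benjamini-Hochberg adjustment over all genes tested and a threshold of 0.05. A standard error is the size of the log2 difference divided by the square root of F. Correlations and litter differences used log2 CPM with a prior count of 2. Exon lengths and annotation came from GENCODE, promoters from RefSeq. Allelic shares above 0 have 95% Wilson intervals, and a share of 0 has the limit that 3 counts of the total give. The edgeR step was tested on simulated counts. No replicate pair agreed within sampling noise.

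The members and gene lists were chosen with earlier results of these data known. Named were all members, of each other list the genes called and up to 5 of lowest p, the 3 of highest level, and the 5 most like Dlx2 or Gad1. Emx1, Neurod6, Shh, Sox2, Sst and Stmn2 were named after their values were seen. Some genes that the rule names are not reported here. Alternatives were RLE, DESeq2 1.42.0, limma-voom (3.58.1) with quality weights, other filters, litter, a replicate block, only the groups compared and leaving out each library.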

Additional observations from a re-analysis of the deposited data

How the results depend on the processing

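Direction and call were followed for the 6 members tested under each alternative: 293 of the log2 differences kept both, 3 newly passed the threshold and 11 changed sign. DESeq2 called 1 member over both sexes and 1 in females (Dlx2 each time, at 2.73 and 4.02), where edgeR called 0. Leaving out single libraries gave 0 to 1 members called over both sexes and 0 in females, in males and in the interaction, and the 1 was Dlx1 at 3.88 without male +/+ replicate 2. Dlx1, Dlx2 and Gsx2 kept a positive difference in females and over both sexes under every alternative that tested them. Their ranges without 1 library were 1.89 to 3.88, 2.44 to 3.21 and 1.10 to 1.93 over both sexes, and 2.99 to 4.00, 3.58 to 4.35 and 2.50 to 4.17 in females. In males Dlx2 ranged from 0.87 to 2.41, and Dlx1 ranged from 0.37 without +/+ replicate 3 to 4.35 without +/+ replicate 2.

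With litter as a covariate, which in females is read only through the litters shared with males, Gad1 was -0.91 over both sexes and -3.64 in females, and Gsx2 0.067 in males. Leaving out 1 library, Gad1 ranged from -2.23 to 0.46 in females (0.32 without E147A/+ replicate 1) and from -0.34 to 1.61 over both sexes. Gad2 in females ranged from -0.41 to 1.65 and Gsx2 in males from -0.79 to 0.034. Lhx6 ranged from -1.51 to 2.02 over both sexes, from -2.81 to 4.26 in females and from -0.83 to 0.17 in males. The cause of these changes was not tested. Where 1 library of a female group was left out, the other was assumed to vary like the other groups.

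Replicate numbers name different embryos. Same-numbered libraries had deviations correlated at -0.304 in females and at -0.238, 0.416 and 0.0341 in males, so the numbers do not pair them. A replicate block gave 0 members called in each comparison and changed the sign of Lhx6 in males alone, to 0.21. Over both sexes it called 5 of all genes, and 6 with the female +/+ numbers crossed (an alternative chosen after seeing the data), beside 14 without it. DESeq2, limma-voom and no filter called 107, 29 and 33 of all genes, and the litter covariate 3.

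A minimum of 10 counts in every library tested 0 of the members and gave no value. The members lie at low counts, so differences in Dlx5, Dlx6, Lhx6 and Nkx2-1 were hardly detectable at this depth.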
